A study of Mus musculus with 15 samples.

Results

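Osteoclasts are the multinucleated cells that resorb bone, and they form by fusion of precursors of the macrophage lineage. The cytokine RANKL acts through its receptor RANK (Tnfrsf11a) and leads to the transcription factor NFATc1, the main regulator of the osteoclast genes. RANKL acts together with M-CSF, whose receptor is Csf1r. Immunoreceptors such as OSCAR signal beside RANK, DC-STAMP and OC-STAMP are membrane proteins needed for fusion of the precursors, and integrin beta 3 anchors the mature cell to bone. RAW264.7, a mouse macrophage cell line, is widely used to form osteoclast-like cells with RANKL.

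The expression of 10 osteoclast genes was examined in RAW264.7 cells saturated with silica nanoparticles (SNPs). The genes were chosen by role as regulators, receptors and fusion genes of the osteoclast, with the protease gene Mmp9, and without the lysosomal enzymes. They were Nfatc1, Tnfrsf11a, Csf1r, Trem2, Oscar, Calcr, Itgb3, Dcstamp, Ocstamp and Mmp9, and all 10 were found by Ensembl identifier among the 57186 genes of the count table. The table had 0 counts of Calcr in all 15 libraries, and the other 9 genes were tested. Oscar had between 2 and 11 counts per library and Mmp9 between 2 and 21, which is too few for a precise estimate, and Ocstamp had between 3 and 105.

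Cells were treated for 6 h with nonporous SNP100 at 50 µg/mL, nonporous SNP50 at 25 µg/mL, mesoporous MSNP at 200 µg/mL or hollow mesoporous HMSNP at 200 µg/mL, or were left nontreated. The nominal diameters were 100, 50, 100 and 100 nm. Each of the 5 groups had 3 libraries of poly(A) RNA. No group is labelled as having received RANKL or M-CSF, and all groups are the same cell line in the same medium with serum.

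Total counts lay between 29369934 and 42617812 per library. The labels do not say whether the replicates were separate cultures, so that p-values measure the spread between these samples, which may be technical. The sample titles carry a number prefix that differs between the groups and is shared within each, and what this prefix stands for is not stated in the labels. Anything that it marks cannot be told apart from the treatment. Control replicate 3 stood apart from the other controls, with a root mean square log2 difference of 0.536 and 0.653 from replicates 1 and 2 over 10659 genes. That difference was 0.23 between Control replicates 1 and 2 and between 0.117 and 0.185 within the treated groups. Of 8 macrophage markers, 7 had a mean of at least 1 CPM (counts scaled to a common library total after TMM normalization) over the 15 libraries, and Mrc1 did not. Of the markers of other cell types, Runx2 among 8 genes of osteoblasts and stroma, Zbtb46 among 4 of dendritic cells and 0 of 5 genes of lymphocytes had such a mean, and Col1a2, Dcn, Ccr7 and Ncr1 were at 0.

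Among the 10 genes, the regulator Nfatc1 and the receptor genes Csf1r, Trem2 and Tnfrsf11a had the highest levels, while the receptor genes Oscar and Calcr had the lowest. Per kilobase of exon in the nontreated controls, Csf1r had 380 ± 53.6 CPM (SD, n = 3), Trem2 113 ± 30.9, Nfatc1 63.7 ± 17.4 and Tnfrsf11a 18.4 ± 3.72. The fusion, adhesion and protease genes lay far below, with 1.07 ± 0.139 CPM per kilobase for Dcstamp, 0.450 ± 0.0556 for Ocstamp, 0.335 ± 0.0963 for Itgb3 and 0.125 ± 0.00733 for Mmp9. The immunoreceptor gene Oscar was the lowest gene with any counts, at 0.0597 ± 0.0358 CPM per kilobase. Of the neighbours in this order, Ocstamp and Itgb3 had ranges that overlapped and the others did not. In the MSNP-treated group Itgb3, at 4.53 ± 0.440 CPM per kilobase, stood above Dcstamp at 1.24 ± 0.154, while Ocstamp at 0.0509 ± 0.0352 and Mmp9 at 0.0489 ± 0.0282 could not be ordered. The calcitonin receptor gene Calcr, a marker of mature osteoclasts, was at 0 in every library, and 3 counts, the limit that a count of 0 allows, correspond to between 0.0687 and 0.101 CPM.

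**Figure D1:**
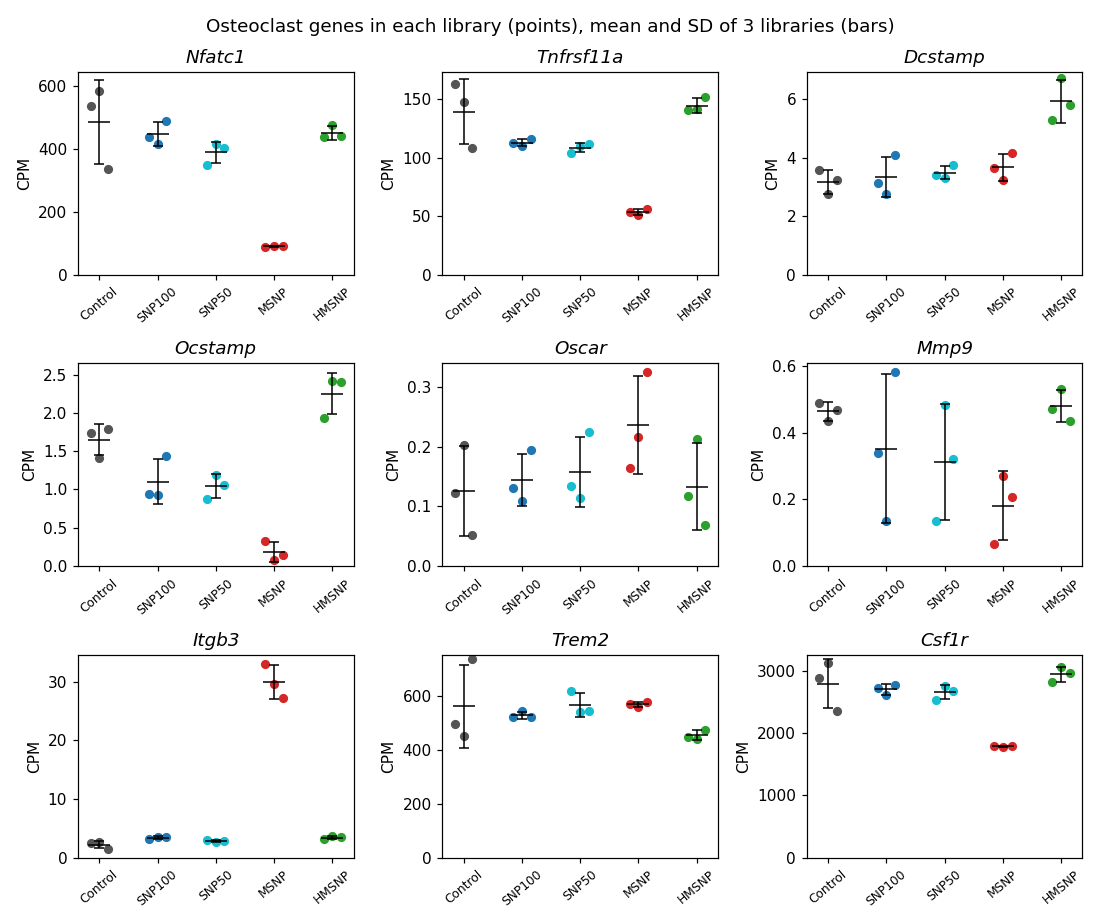
Level of 9 osteoclast genes in CPM (y axis, linear and starting at 0, with its own range in each panel) in the nontreated controls and the 4 treated groups (x axis). Points are libraries and bars are the mean and SD of 3 libraries. The MSNP-treated libraries lie below all others for Nfatc1, Tnfrsf11a, Ocstamp and Csf1r and above all others for Itgb3, the HMSNP-treated libraries lie above all others for Dcstamp and Ocstamp, and Calcr, at 0 throughout, is not drawn.

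The stretches upstream of 3 genes are shown because these genes had the largest increase (Itgb3) and decrease (Ocstamp) with MSNP and the increase with HMSNP (Dcstamp) described next. Each runs 5′ to 3′ on the strand of the gene and ends at the base before the annotated start of the canonical transcript in GRCm39. Capitals mark the letters GGAAAA, the core that NFAT factors bind, or GAGGAAG, a core for PU.1, the macrophage factor Spi1, on either strand. Itgb3 is at chr11:104498576-104498825 on the + strand, Ocstamp at chr2:165242337-165242586 on the - strand and Dcstamp at chr15:39608964-39609213 on the + strand.
Itgb3: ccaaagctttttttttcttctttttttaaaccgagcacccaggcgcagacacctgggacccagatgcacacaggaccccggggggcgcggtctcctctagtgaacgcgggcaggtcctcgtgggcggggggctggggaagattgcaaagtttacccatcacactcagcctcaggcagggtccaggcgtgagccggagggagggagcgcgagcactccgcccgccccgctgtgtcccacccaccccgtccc
Ocstamp: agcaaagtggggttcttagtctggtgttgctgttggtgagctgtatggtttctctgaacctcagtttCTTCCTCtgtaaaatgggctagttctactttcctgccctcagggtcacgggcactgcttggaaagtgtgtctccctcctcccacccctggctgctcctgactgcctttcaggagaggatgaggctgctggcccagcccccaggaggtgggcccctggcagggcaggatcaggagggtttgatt
Dcstamp: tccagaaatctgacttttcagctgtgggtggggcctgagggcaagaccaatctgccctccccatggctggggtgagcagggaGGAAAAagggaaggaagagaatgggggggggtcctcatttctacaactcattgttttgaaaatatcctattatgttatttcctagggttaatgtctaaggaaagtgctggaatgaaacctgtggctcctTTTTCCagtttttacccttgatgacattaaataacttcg

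The windows searched ran from 250 bases before to 50 bases after the start, for the 8 genes outside chromosome 18. The NFAT core was found for Dcstamp (at -168 to -163 and at -39 to -34), for Itgb3 (at 25 to 30, after the start) and for Oscar, and 24.6% of the 21769 windows of protein-coding genes hold it. The PU.1 core was found for Ocstamp (at -183 to -177 and at 40 to 46), Oscar and Trem2, against 13.2% of all windows. The AP-1 motif TGAGTCA was found for Mmp9 (at -69 to -63), against 4.7% of windows. The letters TCACGTG or TCATGTG, which MiT/TFE factors bind, were found for 0 of the 8 genes, against 7.32% of windows. These matches describe the letters in the windows and are not binding sites.

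With MSNP, 4 of the 9 tested genes were downregulated and 1 was upregulated, where a call means a Benjamini-Hochberg adjusted p under 0.05 in the quasi-likelihood test of edgeR. The background was 22.8% of all 19839 tested genes called in this comparison, 11.8% higher and 11% lower. Nfatc1, Tnfrsf11a, Ocstamp and Csf1r fell, Itgb3 rose, and Dcstamp, Oscar, Mmp9 and Trem2 were not called. The called genes thus moved in both directions, while Oscar and Mmp9 had too few counts for a precise estimate. The median log2 fold change of the 9 genes was -0.65, against -0.05 over all tested genes.

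Nfatc1 (ENSMUSG00000033016, chromosome 18, 80649266 to 80756295 of GRCm39) had 538, 586 and 336 CPM in the 3 nontreated control libraries and 87.0, 91.9 and 90.4 CPM in the MSNP-treated libraries. The HMSNP-treated libraries had 437, 476 and 441 CPM. SNP100 had 438, 416 and 490 CPM, and SNP50 had 350, 415 and 403 CPM. The MSNP-treated libraries thus lay below all other libraries, and the other treated groups overlapped the controls, among which replicate 3 was lowest. Against the controls, Nfatc1 fell 5.42-fold with MSNP (log2 fold change -2.44, standard error 0.157, adjusted p = 1.75e-08 in edgeR), with a 95% interval from -2.77 to -2.10. The log2 fold changes with HMSNP and SNP100 were -0.11 (-0.43 to 0.21) and -0.12 (-0.44 to 0.20), and neither was called. In bulk RNA, fewer cells that express a gene and less of its RNA per cell cannot be told apart, here and for every gene that follows.

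Among the receptors, RANK itself followed the same direction. Tnfrsf11a (ENSMUSG00000026321, chromosome 1, 105708358 to 105777170) had 163, 147 and 108 CPM in the nontreated controls and 53.9, 51.2 and 55.7 CPM with MSNP. The HMSNP-treated libraries had 141, 142 and 152 CPM, SNP100 had 112, 110 and 116 CPM, and SNP50 had 104, 110 and 112 CPM. The MSNP-treated libraries were again the lowest of all, and those of the nonporous groups lay close to Control replicate 3, the lowest control. Tnfrsf11a fell 2.6-fold with MSNP (log2 fold change -1.38, standard error 0.112, edgeR adjusted p = 2.27e-07). With HMSNP the log2 fold change was 0.05 (95% interval -0.18 to 0.29) and was not called.

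Csf1r (ENSMUSG00000024621, chromosome 18, 61229714 to 61266535), the receptor for M-CSF and a gene that macrophages express at high levels, had 2891, 3138 and 2366 CPM in the nontreated controls. It had 1792, 1784 and 1792 CPM with MSNP, 2822, 3065 and 2971 with HMSNP, 2737, 2609 and 2773 with SNP100 and 2540, 2759 and 2680 with SNP50. No MSNP-treated library reached the level of any other library, and the other groups overlapped the controls. The decrease with MSNP was 1.56-fold (log2 fold change -0.65, standard error 0.0833, edgeR adjusted p = 3.12e-05). Csf1r shares 1461 exon bases with Hmgxb3 on the opposite strand, which had between 1050 and 2270 counts per library against at least 54212 for Csf1r.

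Trem2 (ENSMUSG00000023992, chromosome 17, 48653429 to 48661175), a lipid-sensing receptor that signals through the adaptor DAP12, was not called in any comparison. It had 496, 450 and 734 CPM in the nontreated controls, 569, 559 and 576 CPM with MSNP and 447, 439 and 473 CPM with HMSNP. The log2 fold change was 0.02 with MSNP (95% interval -0.26 to 0.30) and -0.31 with HMSNP (-0.59 to -0.02, edgeR adjusted p = 0.177). Control replicate 3 was the highest of all libraries here, and without it the log2 fold change with MSNP was 0.27 and was called (edgeR adjusted p = 0.00101).

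Oscar (ENSMUSG00000054594, chromosome 7, 3612812 to 3620861), the osteoclast-associated immunoreceptor, had 4, 7 and 2 counts in the nontreated control libraries, 5, 8 and 11 with MSNP and 4, 8 and 3 with HMSNP. These counts overlap between the groups, and the log2 fold change of 0.92 with MSNP had a 95% interval from -0.16 to 2.0. Oscar also shares 246 exon bases with Ndufa3 on the opposite strand, which had between 1247 and 3039 counts. The libraries were directional, but the strand setting of the counting is not given in the sources used here. The overlap may therefore have affected the counts of Oscar.

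The integrin gene moved against the regulator and RANK. Itgb3 (ENSMUSG00000020689, chromosome 11, 104498826 to 104561302), the beta chain that pairs with integrin alpha V, had 2.50, 2.66 and 1.48 CPM in the nontreated controls and 33.0, 29.7 and 27.2 CPM with MSNP. The HMSNP-treated libraries had 3.12, 3.66 and 3.44 CPM, SNP100 had 3.15, 3.57 and 3.43 CPM, and SNP50 had 2.94, 2.72 and 2.75 CPM. The MSNP-treated libraries stood far above all others, and every library of the other treated groups also lay above every control. With MSNP the increase was 13.6-fold (log2 fold change 3.76, standard error 0.16, edgeR adjusted p = 2.38e-10), with a 95% interval from 3.42 to 4.11. Its partner Itgav, from the list of adhesion genes, fell with MSNP from 500 ± 156 to 144 ± 7.20 CPM (SD, n = 3), and its log2 fold change was -1.80 (edgeR adjusted p = 9.97e-07).

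The genes needed for fusion of osteoclast precursors differed from each other. Ocstamp (ENSMUSG00000027670, chromosome 2, 165235680 to 165242336) had 1.74, 1.42 and 1.80 CPM in the nontreated controls and 0.330, 0.0810 and 0.148 CPM with MSNP, from 10, 3 and 5 counts. It had 1.94, 2.41 and 2.41 CPM with HMSNP, 0.937, 0.925 and 1.44 CPM with SNP100 and 0.878, 1.19 and 1.06 CPM with SNP50. The MSNP-treated libraries were the lowest, the HMSNP-treated libraries the highest, and SNP100 alone overlapped the controls. Ocstamp fell 9.04-fold with MSNP (log2 fold change -3.18, standard error 0.333, edgeR adjusted p = 3.68e-06). The 95% interval ran from -3.89 to -2.46, and the value was -3.80 without MSNP replicate 1 and -2.78 without MSNP replicate 2.

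Dcstamp (ENSMUSG00000022303, chromosome 15, 39609214 to 39624334) had 3.56, 2.75 and 3.23 CPM in the nontreated controls, 3.64, 3.24 and 4.15 CPM with MSNP and 5.29, 6.74 and 5.80 CPM with HMSNP. SNP100 had 3.15, 2.75 and 4.10 CPM and SNP50 had 3.41, 3.32 and 3.74 CPM. The HMSNP-treated libraries were above all others, and the remaining groups overlapped. The log2 fold change with MSNP was 0.21 (95% interval -0.13 to 0.55) and was not called. An antisense lncRNA, Gm62978, overlaps 1066 exon bases of Dcstamp and has no row in the count table.

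Mmp9 (ENSMUSG00000017737, chromosome 2, 164780439 to 164797771), a matrix protease that osteoclasts secrete, had 16, 15 and 18 counts in the nontreated controls, 2, 10 and 7 with MSNP and 16, 20 and 19 with HMSNP. The counts in SNP100 were 13, 5 and 21, and those in SNP50 were 4, 17 and 10. In CPM the MSNP-treated libraries lay below the controls without overlap, while both nonporous groups spanned low and high values. The log2 fold change with MSNP was -1.30 with a 95% interval from -2.39 to -0.20, and it was not called (edgeR adjusted p = 0.0842).

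With HMSNP, 2 of the 9 tested genes were upregulated and 0 were downregulated, against 5.16% of all tested genes called in this comparison, 2.46% higher and 2.7% lower. The median log2 fold change was 0.08, against -0.04 over all tested genes. Dcstamp rose 1.87-fold (log2 fold change 0.90, standard error 0.155, 95% interval 0.57 to 1.23, edgeR adjusted p = 0.00297), and with only the 6 libraries of the comparison in the model the same value had an adjusted p of 0.0924. Itgb3 had a log2 fold change of 0.63 (standard error 0.166, edgeR adjusted p = 0.0419), a call that was kept in 8 of 22 alternatives. Its value was 0.40 without Control replicate 3, with an adjusted p of 0.0541, and 0.81 without Control replicate 2. Ocstamp had no overlap with the controls but was not called, with a log2 fold change of 0.45 (95% interval -0.04 to 0.94).

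MSNP and HMSNP were given at the same dose for the same time, and the comparison of these particles, which differ in the hollow core and also, by the study's account, in surface composition, called 6 of the 9 tested genes, against 20.2% of all tested genes (9.22% higher and 11% lower with HMSNP). HMSNP-treated cells had higher levels of Ocstamp (log2 difference 3.63, standard error 0.322, edgeR adjusted p = 6.56e-07), Nfatc1 (2.33, adjusted p = 3.16e-08), Tnfrsf11a (1.43, adjusted p = 1.65e-07), Csf1r (0.72, adjusted p = 1.08e-05) and Dcstamp (0.69, adjusted p = 0.00384). Itgb3 was 8.78-fold lower with HMSNP (log2 difference -3.13, standard error 0.152, edgeR adjusted p = 9.66e-10). For the genes that were not called, the 95% intervals of the log2 difference were -0.61 to -0.04 for Trem2, 0.26 to 2.42 for Mmp9 and -1.89 to 0.21 for Oscar. The median was 0.72 over the 9 genes and 0.00 over all genes. The libraries of these groups did not overlap for Trem2 and Mmp9. With only the 6 libraries of the comparison in the model, edgeR called Trem2 (-0.31, adjusted p = 2.35e-05) and Mmp9 (1.35, adjusted p = 0.0172). This comparison shares the MSNP-treated libraries with that of MSNP and the controls, and the 4 comparisons with the nontreated group share its 3 libraries.

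**Figure D2:**
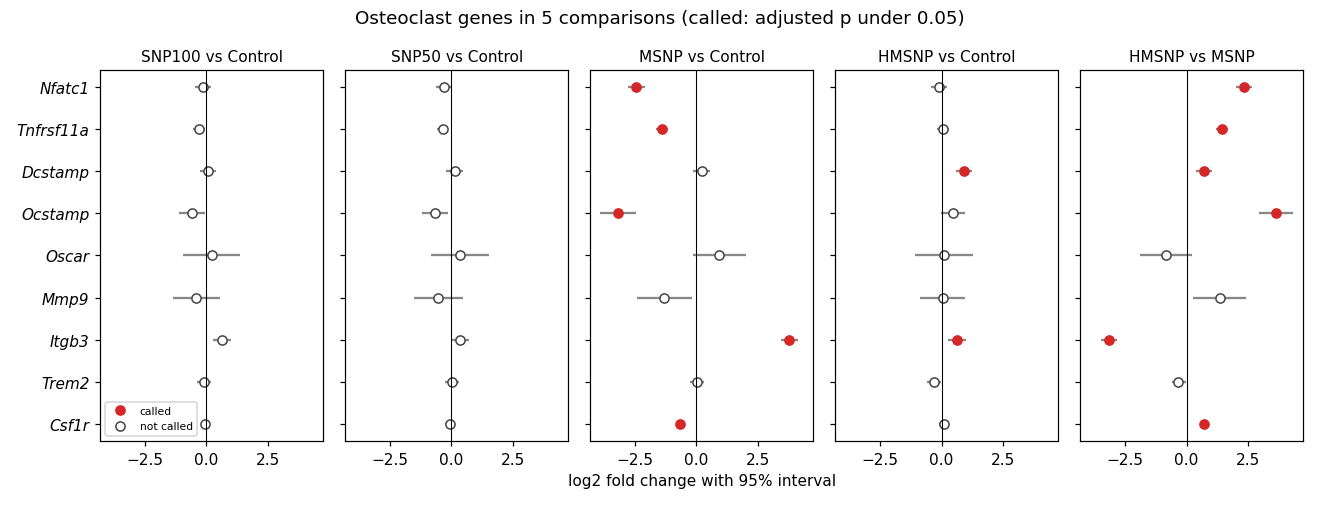
Log2 fold change (x axis) of the 9 tested osteoclast genes (y axis) in 5 comparisons, with 95% intervals as bars. Filled points were called by edgeR (adjusted p under 0.05) and open points were not. Itgb3 stands at 3.76 and Ocstamp at -3.18 with MSNP, the nonporous groups have open points alone, and Oscar and Mmp9 have the widest bars.

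The nonporous particles gave fewer calls than MSNP and HMSNP, though not smaller log2 fold changes than HMSNP for every gene. In SNP100 and in SNP50, 0 of the 9 tested genes were called against the nontreated controls, where 0.912% and 1.41% of all tested genes were called (0.509% higher and 0.403% lower in SNP100, 0.454% higher and 0.958% lower in SNP50). At these shares, 0 calls among 9 genes does not set the osteoclast genes apart from all tested genes. In each nonporous group an unadjusted p under 0.05 was found for 3 of the 9 genes, and for 2085 (SNP100) and 2384 (SNP50) of the 19839 tested genes. The osteoclast genes among them were Tnfrsf11a, Ocstamp and Itgb3 in SNP100 (log2 fold changes -0.31, -0.59 and 0.62) and Nfatc1, Tnfrsf11a and Ocstamp in SNP50 (-0.32, -0.36 and -0.66). DESeq2 called 1 of the 9 genes in SNP100, Itgb3 (log2 fold change 0.63, adjusted p = 0.0214), and 0 in SNP50. Without Control replicate 3, edgeR called 2 genes in SNP100 and 4 in SNP50, and Tnfrsf11a then had log2 fold changes of -0.46 (adjusted p = 9.76e-05) and -0.52 (adjusted p = 2.27e-05). Without Control replicate 2 it called Itgb3 in SNP100. The share of all tested genes called in these alternatives is not given here, so these counts have no background beside them. Between SNP50 and SNP100, 0 of the 9 genes were called, as were 0% of all genes, with 0 and 867 at an unadjusted p under 0.05 and 0 of the 9 called by DESeq2. The dose and the size differ between these groups, and the 95% interval of the log2 difference was -0.52 to 0.12 for Nfatc1 and -0.62 to 0.08 for Itgb3.

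MSNP and SNP100 have the same nominal diameter and differ in porosity and in dose. Against SNP100, MSNP-treated cells had 1 gene higher and 4 lower of the 9, with 17.9% of all tested genes called (10.4% higher and 7.53% lower). Itgb3 was higher (log2 difference 3.14, edgeR adjusted p = 1.76e-09), and Ocstamp (-2.59, adjusted p = 6.04e-05), Nfatc1 (-2.32, adjusted p = 4.68e-08), Tnfrsf11a (-1.07, adjusted p = 4.54e-06) and Csf1r (-0.60, adjusted p = 9.01e-05) were lower. The control libraries entered this comparison only through the normalization, the choice of tested genes and the estimate of the spread.

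**Figure D3:**
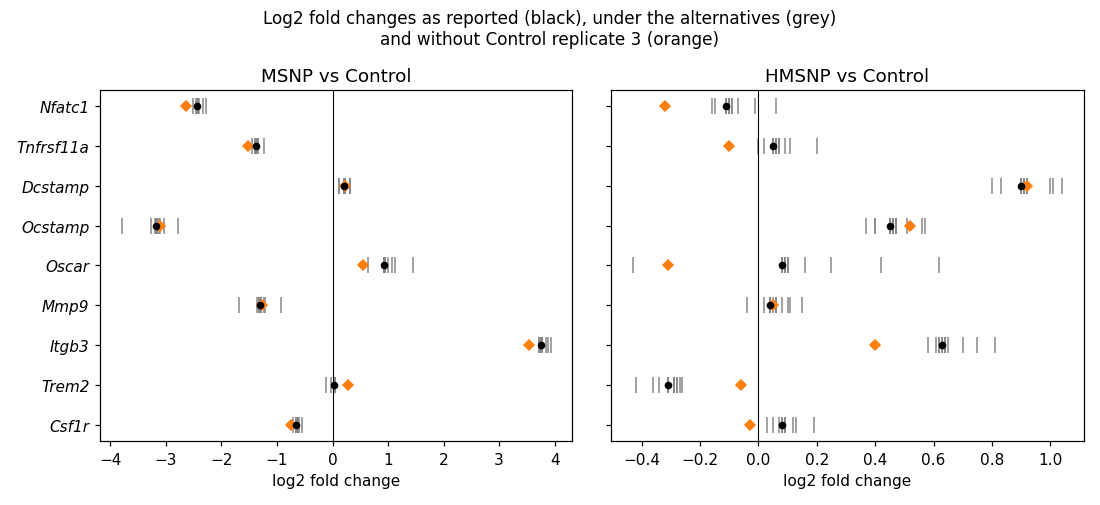
Log2 fold change (x axis, with a different range in each panel) of the 9 tested genes (y axis) against the nontreated controls as reported (black), under each alternative (grey) and without Control replicate 3 (orange). With MSNP the 5 called genes keep their sign, while with HMSNP Itgb3 moves from 0.63 to 0.40 and Nfatc1 from -0.11 to -0.32 without that library.

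The genes whose profile over the 15 libraries was closest to that of each gene were found by the root mean square difference of centred log2 CPM among 11540 genes with a mean of at least 1 CPM. These are descriptions over libraries that share 5 groups. Nfatc1 was closest to Spata13 (0.0725) and Il18rap (0.122), which had log2 fold changes with MSNP of -2.55 and -2.34. Tnfrsf11a was closest to Tamalin (0.0954) and Mitf (0.0989), the latter a transcription factor of macrophages and osteoclasts with -1.43. Itgb3 was closest to Igf2bp2 (0.265) and Rps6ka2 (0.289), with 3.25 and 2.90. Ocstamp was closest to Trib1 (0.361) and C5ar2 (0.422), and Dcstamp to Tnfrsf10b (0.18) and Themis2 (0.184), which had 0.80 and 0.64 with HMSNP. Trem2 was closest to Mpnd (0.0403) and Rab34 (0.0405), and Csf1r to Prag1 (0.0531) and Casp2 (0.0611).

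Genes that act around these 10 were taken from 5 lists. Of all 19839 tested genes, 22.8% were called with MSNP (11.8% higher and 11% lower). With HMSNP 5.16% were called (2.46% higher and 2.7% lower), and these shares are the background for every list. Of the list of RANK and M-CSF signalling, 20 of 22 genes were tested, and MSNP had 5 higher and 4 lower, with a median log2 fold change of 0.01. Fos, the AP-1 subunit needed for osteoclast formation, fell from 104 ± 7.97 to 10.1 ± 0.512 CPM (SD, n = 3; log2 fold change -3.37, edgeR adjusted p = 1.11e-11), and Fosl2 fell as well (-1.50). Jun rose (1.46), and Csf1, which encodes M-CSF, rose from 0.565 ± 0.142 to 4.29 ± 0.801 CPM (log2 fold change 2.93, edgeR adjusted p = 5.29e-07). With HMSNP 2 genes were higher and 1 lower, with a median of 0.22. Nfkb2, of the noncanonical NF-kB pathway, rose (0.62, edgeR adjusted p = 2.56e-05) and Fosl2 fell (-1.02). The genes of RANKL (Tnfsf11) and of its decoy receptor osteoprotegerin (Tnfrsf11b) were not tested, as their counts over all libraries added up to less than 10.

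Of the 16 tested of 17 genes of ITAM and calcium co-stimulation, MSNP had 6 higher and 2 lower (median 0.19) and HMSNP had 0 higher and 1 lower (median 0.09). Rcan1, an inhibitor of calcineurin and a known target of NFAT, was downregulated in all 4 treated groups, with log2 fold changes of -0.59 (SNP100), -0.65 (SNP50), -2.03 (MSNP) and -0.40 (the HMSNP group). With MSNP the exchange factor Vav3 (1.51), the kinase Syk (1.0) and Ppargc1b (0.67), a coactivator of mitochondrial biogenesis, rose. Vav3 had 0.56 with HMSNP and was not called (edgeR adjusted p = 0.0712).

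All 12 repressors of osteoclast formation were tested, with 4 higher and 4 lower in MSNP (median -0.13) and 2 higher and 0 lower in HMSNP (median 0.09). The inhibitory receptor gene Pirb, whose counts are uncertain because the Pira genes have near-identical sequence, rose with MSNP (log2 fold change 1.77, edgeR adjusted p = 5.73e-09) and with HMSNP (1.12, adjusted p = 1.19e-05), and so did Tnfaip3, an inhibitor of NF-kB (1.20 and 0.53). With MSNP Id2 rose (0.86), while Id1 (-1.05), Id3 (-1.23) and the transcriptional repressor gene Bcl6 (-0.69) fell.

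Among the partners of fusion and adhesion, 17 of 18 genes were tested, with 6 higher and 2 lower in MSNP (median 0.13) and 5 higher and 0 lower in HMSNP (median 0.26). Atp6v0d2, a proton pump subunit that also takes part in fusion of osteoclast precursors, rose from 30.3 ± 3.43 to 197 ± 8.35 CPM with MSNP (SD, n = 3; log2 fold change 2.7, edgeR adjusted p = 1.11e-11). It had 0.47 with HMSNP (adjusted p = 0.00251). The kinase gene Src (0.92 with MSNP and 0.52 with HMSNP) and Sirpa (0.80 and 0.38), a receptor for CD47, rose with both particles, and Cd44, a hyaluronan receptor, rose with HMSNP (0.50, edgeR adjusted p = 0.001).

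The 11 genes of bone resorption were all tested, with 6 higher and 4 lower in MSNP (median 0.44) and 0 higher and 2 lower in HMSNP (median 0.05). With MSNP the chloride channel gene Clcn7 (log2 fold change 1.64, edgeR adjusted p = 4.64e-08), its partner Ostm1 (0.98) and Plekhm1 (1.07), which takes part in lysosome trafficking, rose. Car2, the carbonic anhydrase that supplies protons, fell with MSNP (-1.16) and HMSNP (-0.86), and Acp5, the tartrate-resistant acid phosphatase used to stain osteoclasts, fell with MSNP (-0.31) and HMSNP (-0.44). Ctsk (0.84) and Tcirg1 (1.20), of the same list, rose with MSNP and were not called with HMSNP. In these 5 lists, with 20, 16, 12, 17 and 11 genes tested, SNP100 had 2 genes higher (Jun and Atp6v0d2) and 1 lower (Rcan1). In the same lists SNP50 had 1 higher (Jun) and 3 lower (Rcan1, Cd44 and Snx10). Over all genes the median log2 fold change was -0.05 with MSNP and -0.04 with HMSNP. Of all tested genes, 0.912% were called with SNP100 (0.509% higher and 0.403% lower) and 1.41% with SNP50 (0.454% higher and 0.958% lower).

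**Figure D4:**
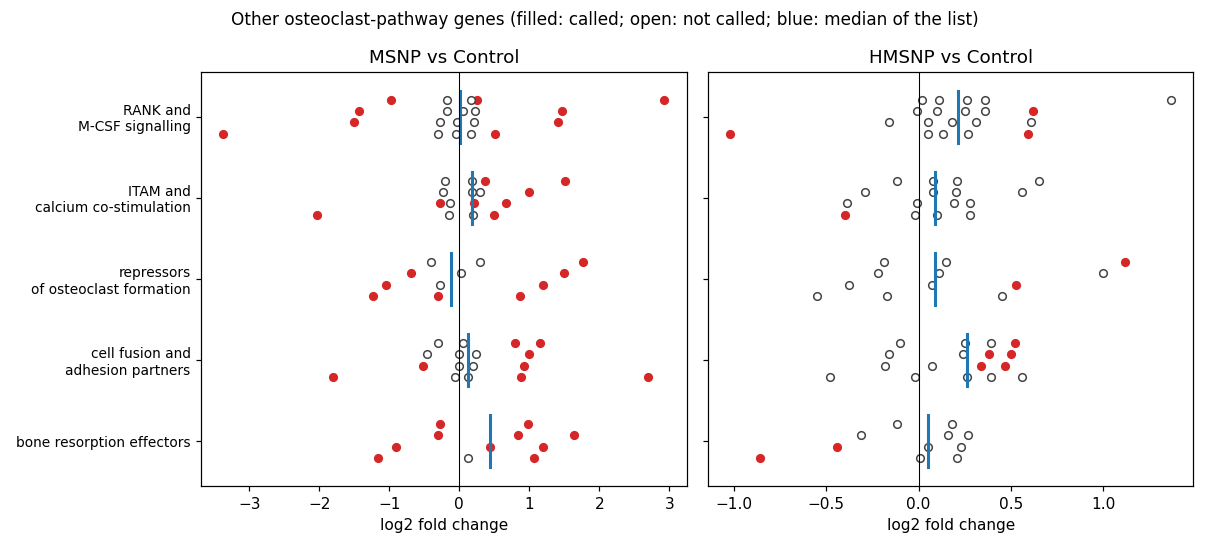
Log2 fold change against the nontreated controls (x axis, with a different range in each panel) of each tested gene of 5 lists (y axis) with MSNP and HMSNP. Filled points were called by edgeR (adjusted p under 0.05), open points were not, and the blue line is the median of the list. With MSNP called genes lie on both sides of 0 in every list, and the medians lie between -0.13 and 0.44.

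Markers of the macrophage moved with MSNP too, with 2 of 8 genes higher and 4 lower, against 11.8% and 11% of all tested genes. Their summed level was between 11430 and 12370 CPM in the MSNP-treated libraries and between 13000 and 17670 CPM in the controls. Cd68 rose (log2 fold change 0.68, edgeR adjusted p = 1.01e-06), Mrc1 rose (1.96) from 0.463 ± 0.194 CPM (SD, n = 3), and Cd14 (-0.78), Fcgr1 (-0.76), Itgam (-0.46) and Lyz2 (-0.39) fell. With HMSNP 0 of the 8 were called in edgeR, against 5.16% of all tested genes. An unadjusted p under 0.05 was found for 1 of the 8, and for 4771 of the 19839 tested genes. The summed level of the lymphocyte markers was between 0.324 and 0.397 CPM with MSNP and between 0.0609 and 0.116 CPM in the controls, and that of the osteoblast and stroma markers was between 8.66 and 9.10 CPM with MSNP and between 8.17 and 13.0 CPM in the controls. The part of these markers in the results for the osteoclast genes was not tested.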

How the data were processed

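RNA-seq counts of 15 libraries of RAW264.7 cells were used, with 3 libraries in each of 5 groups. Per the labels and the methods of the study, poly(A) RNA was made into directional libraries, and the processing notes name cutadapt 1.16, STAR 2.7.9a and featureCounts 1.6.3 with GRCm39. The authors deposited raw whole-number counts of each gene in each separate library. The annotation and the strand setting of the counting are not given in the sources used here. Groups came from the sample labels, and doses from the study's methods.

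Symbols, positions and exon lengths came from GENCODE vM39 (GRCm39), where 56630 of the 57186 identifiers were found. A gene was tested if its counts added up to at least 10 (19839 genes; 30400 had 0 counts throughout). The tests used edgeR 4.0.16 in R 4.3.3 with TMM normalization, 1 quasi-likelihood model of all 15 libraries and Benjamini-Hochberg adjustment over all tested genes, with a threshold of 0.05. The methods of the study use DESeq2, which served here as an alternative (1.42.0). Each standard error is the log2 fold change divided by the square root of its F value, and intervals of 95% from the degrees of freedom of the model. The precision of a value is limited by total counts between 29369934 and 42617812 per library.

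The genes named are the 10 osteoclast genes, up to 4 genes of each list with the smallest p in MSNP against the controls and up to 2 in HMSNP against the controls, cell type markers, and the 2 genes closest to each of the 10 with a mean of at least 1 CPM. The other genes named were chosen after their values were seen. These genes, lists and tests were chosen with earlier results of these data known. The test was checked on simulated data.

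The alternatives were DESeq2, RLE size factors, the filterByExpr filter, no filter, models of 6 libraries per comparison, a replicate block, an offset for gene length (lowess span 0.3; 126 tested genes have no length) and leaving out each library in turn. Sequences were read from the GRCm39 genome.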

Additional observations from a re-analysis of the deposited data

How the results depend on the processing

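All 5 calls for MSNP against the controls and those between MSNP and SNP100 and between HMSNP and MSNP were made in all 22 alternatives, and no value that was called changed sign in any comparison. The number of the 9 osteoclast genes called changed as follows. For SNP100 against the controls it was 0 as reported, 1 with DESeq2, and from 0 to 2 when 1 library was left out, with 1 without Control replicate 2 (Itgb3) and 2 without Control replicate 3 (Nfatc1 and Tnfrsf11a). For SNP50 it was 0, 1 with the offset for gene length (Tnfrsf11a, log2 fold change -0.37, edgeR adjusted p = 0.0389), and from 0 to 4 with 1 library left out, with 4 without Control replicate 3 (Nfatc1, Tnfrsf11a, Trem2 and Csf1r). For HMSNP it was 2, 0 with only the 6 libraries of the comparison, and from 1 to 3 with 1 library left out, with 3 without Control replicate 2, where Trem2 (-0.42) was added. For MSNP it ranged from 5 to 6. For HMSNP against MSNP it ranged from 6 to 8. It was 8 with only the 6 libraries of the comparison and also without Control replicate 3, where Trem2 and Mmp9 were added. Trem2 then had -0.31 (edgeR adjusted p = 2.35e-05) and -0.33 (edgeR adjusted p = 3.28e-05). For MSNP against SNP100 the number was 5 with any library left out. It was 6 with only the 6 libraries of the comparison, where Trem2 (0.11, edgeR adjusted p = 0.0177) was added. Without Control replicate 3, Nfatc1 was also called with HMSNP (-0.32, adjusted p = 0.0126). The cause of these changes was not tested. The share of all tested genes called in each alternative is not given here, so these counts have no background beside them. The correlations of deviations of libraries with the same number ranged from -0.517 to 0.573, so that the numbers were not taken to pair the libraries, and with the replicate block the number called was 0 for SNP100 and for SNP50, 5 for MSNP and 2 for HMSNP, as without it. Depth limits Oscar, Mmp9 and Calcr, and for Oscar no difference was detectable at this depth.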
